A study of Mus musculus with 40 samples.

Results

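Slc6a14 is 1 of the 45792 mouse genes with a row in the count table of this series, and it encodes a membrane transporter that carries amino acids into cells. It was chosen from these data because its level in total colonic tissue was higher with the protozoan than without it, by more at the later days, and was not higher in epithelial cells. Its values in inoculated and control mice are therefore given as a description, with no test. The series followed mice inoculated with 2000000 sorted Tritrichomonas musculis (T.mu), a flagellated protozoan that lives in the mouse gut, and mice with no inoculum, all sampled 3, 14 or 48 days later. RNA was taken from total colonic tissue and from colonic epithelial cells. Every T.mu group and every control group held 3 libraries at days 3 and 14 and 4 libraries at day 48, or 40 libraries in 12 groups. Library titles carry a number, after C-L for controls and after TM for T.mu, which is used here as the litter number. The titles alone do not say that a shared number is a shared litter. The strain, age and sex of the mice are not given in the sources used here. It is not stated whether an epithelial and a tissue library with the same number came from 1 mouse. That the libraries of a group are separate mice rests on those numbers and on the series design. The design names 3 mice per group, fewer than the 4 libraries at day 48. If some libraries share a mouse, p-values measure only the spread between the libraries.

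SLC6A14 belongs to the sodium- and chloride-coupled SLC6 transporters, a family that also moves neurotransmitters, taurine and creatine. It takes up neutral and cationic amino acids, among them arginine and tryptophan, and concentrates them strongly because it uses both ion gradients. In the intestine it sits in the apical membrane of colonic epithelial cells, and it is known from human and mouse colon as a gene that is raised in inflammation.

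The gene, ENSMUSG00000031089.7 in the count table, spans chrX:21714896-21742355 on the plus strand of GRCm38 in the GENCODE M21 annotation. It is 27460 bases long and has 1 annotated transcript of 14 exons with 3434 exon bases. The libraries count the 3′ ends of transcripts, so a count says nothing about which exons were used. A small ribosomal RNA gene, Gm25553, lies inside it and had 0 counts in all libraries. The nearest gene after it, Gm28269, starts 1085 bases past its end on the other strand and had 87 counts over the 40 libraries. The nearest protein-coding gene before it, the angiotensin receptor gene Agtr2, ends 225732 bases away and had 47 counts. Slc6a14 alone of these genes was counted at more than a trace.

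The 250 bases before the RefSeq start of Slc6a14 (GRCm38.p6, chrX:21714650-21714899, plus strand) are shown because they are the promoter of the gene whose level differed between the mice. The capitals mark the single match to the AP-1 motif, the binding site of the Fos and Jun factors.
Slc6a14: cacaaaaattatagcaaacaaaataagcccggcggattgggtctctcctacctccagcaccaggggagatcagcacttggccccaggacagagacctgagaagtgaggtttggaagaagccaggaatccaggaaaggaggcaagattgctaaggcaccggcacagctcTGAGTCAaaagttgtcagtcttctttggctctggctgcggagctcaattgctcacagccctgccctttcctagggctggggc
AP-1 was searched as TGANTCA on both strands of 300 bases, which add the first 50 of the gene to those printed. The match, TGAGTCA, begins 82 bases before the start (position -82), and 7.81% of 32851 mouse promoters of the same length hold one. There was no match for a TATA box (TATAAA, in 13.6% of promoters), a STAT site (TTCNNNGAA, in 8.30%) or an amino acid response element (TGATGNAA, in 3.97%) in this window. None of these patterns overlaps another here. A match is a description of the letters and says nothing of binding.

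Depth was uneven. Mouse counts per library ran from 220717 to 6756616 in total tissue (median 2158349) and from 170291 to 2866306 in epithelium (median 1166080), with 4 and 3 libraries under 400000. At day 48 in total tissue the T.mu libraries held 236155 to 1355659 counts and the controls 2223447 to 6756616. The sample names in the labels hold a pair of short sequences that look like library indices. Both arms of a tissue and day share the last of the pair, except total tissue at day 48. There all 4 T.mu libraries carry a different one from all 4 controls, so the index and the inoculum cannot be told apart. Within each tissue the last of the pair also differs between the days, so day and index cannot be told apart. Smooth muscle and fibroblast genes were close to absent from the epithelial libraries. Median Myh11, a smooth muscle myosin, was 2.69 CPM in epithelium and 487 CPM in total tissue, and median Col1a1, a collagen of fibroblasts, was 0.423 and 63.9 CPM. The epithelial genes Epcam and Vil1 went the other way, with a median of 904 CPM for Epcam in epithelium against 2995 CPM in total tissue, and 257 CPM for Vil1 in epithelium against 687 CPM in total tissue. The epithelial libraries thus held little muscle and fibroblast RNA, while the markers of epithelium itself were lower in them than in whole tissue.

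In total tissue, Slc6a14 stood at a like level with and without T.mu at day 3, was higher on average with T.mu at day 14, and was higher in every T.mu library than in every control at day 48. Levels are CPM, a gene's counts on a library total common to all libraries, scaled within a tissue by the TMM method. At day 3 the T.mu libraries had 1597, 1837 and 1509.7 CPM, from 3572, 7067 and 1904 counts, and the control libraries had 1745, 1513 and 1932 CPM, from 5349, 5629 and 8101 counts. The groups overlapped, at 1648 ± 169 CPM with T.mu and 1730.2 ± 210.0 CPM in controls (SD, n = 3 each). At day 14 the T.mu libraries had 1761, 2486 and 2200.4 CPM, from 7023, 4752 and 986 counts, and the control libraries had 1277, 1179 and 1920.4 CPM, from 441, 281 and 3504 counts. The groups still overlapped, since the third control was above the first T.mu library, at 2149 ± 365 CPM with T.mu and 1459 ± 403 CPM in controls (SD, n = 3 each).

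At day 48 the T.mu libraries had 2282, 2999.9, 1884 and 2115 CPM of Slc6a14, from 699, 1828, 2360 and 498 counts. The control libraries had 1208, 922, 968 and 634 CPM, from 2708, 3151, 6815 and 2336 counts. The groups did not overlap, and the lowest T.mu library was above the highest control. The means were 2320.2 ± 482 CPM with T.mu and 933 ± 236 CPM in controls (SD, n = 4 each). Counting error was small beside these differences, at most 4.48% of a library's value at day 48, though low values in the table are mostly even numbers and the true precision is below that.

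For days 3, 14 and 48, the fit over all genes gave Slc6a14 log2 fold changes of T.mu over control of -0.07 ± 0.19 (SE), 0.55 ± 0.20 and 1.31 ± 0.17. As folds these are 0.953, 1.47 and 2.49. The median over the 11696 genes tested in total tissue was -0.01, 0.06 and -0.11 at the same days. By size of fold change Slc6a14 was at place 6674 at day 3, 2132 at day 14 and 201 at day 48. At day 48, 1.00% of the genes tested were called higher with T.mu at an adjusted p under 0.05 (edgeR's quasi-likelihood test) and 0.804% lower, 117 and 94 genes, and with RLE scaling 170 and 89. At day 14 these shares were 0.821% and 0.145%, 96 and 17 genes, and with RLE scaling 87 and 37. Since these contrasts chose Slc6a14, nothing is read from the shares for it. The day 14 value rests on 2 shallow controls with 351445 and 220717 counts. Without libraries under 400000 counts, 1 control remained and the log2 fold change was 0.14.

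**Figure D1:**
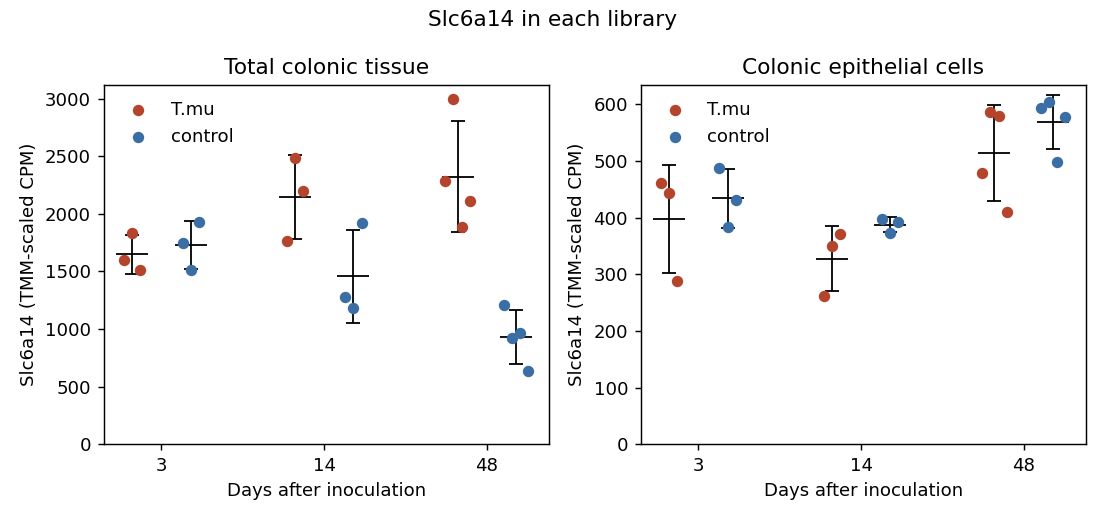
Slc6a14 in each library (points), as TMM-scaled CPM on the vertical axis, by days after inoculation, with total colonic tissue on the left and epithelial cells on the right. T.mu is drawn left of control, and bars give the mean and SD; in total tissue at day 48 the T.mu libraries lie between 1884 and 2999.9 CPM and the controls between 634 and 1208 CPM.

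The day 48 difference had a part in each arm. Over the days the T.mu means were 1648, 2149 and 2320.2 CPM of Slc6a14, and the control means were 1730.2, 1459 and 933 CPM. Day 48 over day 3 gave a log2 fold change of 0.49 ± 0.18 (SE) in T.mu tissue and -0.89 ± 0.18 in control tissue, where the level at day 48 was 1.86-fold lower than at day 3. The change over the days was the larger in size in the control arm, a difference in size that was not tested. The index of the libraries also changes between these days in each arm, so day and index cannot be told apart. The T.mu response at day 48 less that at day 3 came to 1.38 ± 0.26 on the log2 scale, at place 201 of 11696 genes. All control libraries at day 48 were below all controls at day 3 (highest 1208 CPM at day 48, lowest 1513 CPM at day 3), and this also held without TMM scaling (highest 1218 CPM at day 48, lowest 1414 CPM at day 3). The T.mu libraries of day 48 were above those of day 3 with TMM scaling (lowest 1884 CPM at day 48, highest 1837 CPM at day 3) but overlapped without it (lowest 1741 CPM at day 48, highest 1971 CPM at day 3). The 8 adipocyte genes moved with the controls over these days. They summed to 1281 ± 879.8 CPM in control tissue at day 48 (SD, n = 4), against 81.9 ± 1.07 CPM at day 3 (SD, n = 3), and all 6 that were tested were higher at day 48 in the fitted values (median log2 fold change 7.01). Their part in the Slc6a14 values was not tested.

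Library pairs with the same litter number show the same values again and are no further evidence. In total tissue the T.mu over control ratios of Slc6a14 were 0.915, 1.21 and 0.781 at day 3, so 1 of 3 pairs was above 1. At day 14 they were 1.38, 2.11 and 1.15, and at day 48 they were 1.89, 3.25, 1.95 and 3.34. Every pair of the later days was above 1, and the smallest ratio of day 48 was above 2 of the 3 ratios of day 14. At day 48 any pairing of these libraries would give ratios above 1, since the groups did not overlap.

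**Figure D2:**
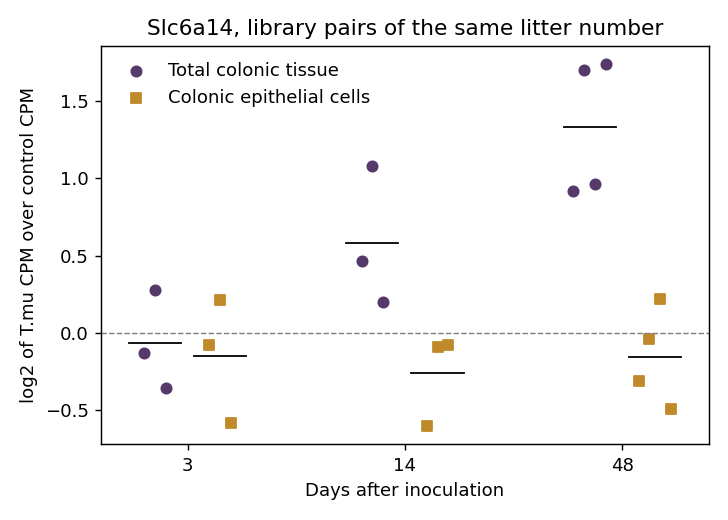
log2 of T.mu CPM over control CPM of Slc6a14 for each pair of libraries with the same litter number (points), by days after inoculation, in total tissue (circles) and epithelium (squares), with the mean as a line and equal levels as the dashed line. In total tissue the 4 pairs of day 48 lie between 0.92 and 1.74, and in epithelium they lie between -0.49 and 0.22.

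In epithelial cells Slc6a14 was not higher with T.mu at any day. At day 3 the T.mu libraries had 462, 444 and 288 CPM, from 400, 151 and 354 counts, and the control libraries had 488, 384 and 431 CPM, from 156, 219 and 81 counts. At day 14 the T.mu libraries had 262, 350.3 and 371 CPM, from 414, 456 and 413 counts, and the control libraries had 398, 373 and 393 CPM, from 330, 392 and 452 counts. The groups overlapped at day 3. At day 14 the highest T.mu library, at 371 CPM, was just under the lowest control, at 373 CPM, but without TMM scaling the ranges overlapped, from 271 to 425 CPM with T.mu and from 367 to 402 CPM in controls. At day 48 the T.mu libraries had 478, 587, 580.1 and 411 CPM, from 1454, 628, 1086 and 414 counts, and the control libraries had 594, 605, 499 and 577 CPM, from 890, 683, 830 and 609 counts. These groups overlapped as well. Over all genes tested in epithelium, 0.356%, 0.504% and 0.296% were called in either direction at days 3, 14 and 48.

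The epithelial means were 398 ± 95.9 CPM with T.mu and 434 ± 52.1 CPM in controls at day 3 (SD, n = 3 each), 328 ± 57.8 and 388 ± 13.5 CPM at day 14 (n = 3 each), and 514 ± 84.9 and 569 ± 48.0 CPM at day 48 (n = 4 each). The log2 fold changes of T.mu over control were -0.13 ± 0.23 (SE), -0.24 ± 0.23 and -0.14 ± 0.19 at days 3, 14 and 48. The size of each was close to its SE or under it. Both epithelial arms had more Slc6a14 at day 48 than at day 3, by 0.38 ± 0.21 with T.mu and 0.39 ± 0.22 in controls on the log2 scale. Control tissue had less at day 48, so the day course of the controls ran in opposite directions in the 2 tissues. This description was not tested, and in each tissue the index changes along with the day.

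Whether uninoculated epithelium and tissue differ in Slc6a14 was not part of its choice, and it was tested. On a scale common to all 40 libraries, control epithelium held 429 ± 43.2, 415 ± 16.6 and 589 ± 50.0 CPM at days 3, 14 and 48, against 1647 ± 192, 1401 ± 385 and 896 ± 226 CPM in control tissue (SD, n = 3, 3 and 4). Averaged over the days, Slc6a14 was 2.71-fold lower in control epithelium than in control tissue, with a log2 fold change of -1.44 ± 0.12 (SE) and an adjusted p of 1.39e-18 (edgeR's quasi-likelihood test). In that comparison 52.8% of 11834 genes were called, 23.1% higher and 29.7% lower in epithelium, so a call is common there. With RLE, the other scaling that was tried, 3626 genes were called higher and 2667 lower in epithelium, against 2734 and 3515 with TMM. The median over all genes was -0.07 with TMM scaling and 0.18 with RLE, which gave Slc6a14 -1.18. Slc6a14 was thus below the median of all genes by either scaling.

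All 12 groups can be put in order on the common scale. Total tissue with T.mu at day 48 was highest at 2213 CPM, followed by T.mu at day 14 with 2041 CPM, control at day 3 with 1647 CPM, T.mu at day 3 with 1575 CPM, control at day 14 with 1401 CPM and control at day 48 with 896 CPM. The epithelial groups came below them, with control at day 48 at 589 CPM, T.mu at day 48 at 538 CPM, control at day 3 at 429 CPM, T.mu at day 3 at 417 CPM, control at day 14 at 415 CPM and T.mu at day 14 at 351 CPM. Every group overlapped in range with its neighbour in this order, the lowest tissue group with the highest epithelial one included.

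Most of the listed epithelial genes were also lower in the epithelial libraries. Of 28 genes of surface colonocytes, the differentiated absorptive cells at the top of the crypt, 23 were lower and 3 higher in control epithelium than in control tissue (92.9% called, median log2 fold change -1.30). Of 15 genes of all epithelial cells, 9 were lower and 2 higher (73.3% called, median -0.51). Genes of distal colon position differed too. Of 8 listed, 5 were tested, with Hoxb13, Hoxd13, Hoxa13 and Ly6g higher and Hoxd10 lower in control epithelium. The 8 summed to 242 ± 35.4, 307 ± 39.5 and 163 ± 32.9 CPM in control epithelium at days 3, 14 and 48, against 9.82 ± 5.01, 8.80 ± 6.98 and 9.54 ± 1.96 CPM in control tissue (SD, n = 3, 3 and 4). The part of these position genes in the Slc6a14 difference was not tested. In bulk tissue, fewer cells of a type and less RNA per cell cannot be told apart. Per 1000 CPM of those surface genes summed, control epithelium held 13.6 ± 3.53, 11.1 ± 0.134 and 17.6 ± 1.62 CPM of Slc6a14 at days 3, 14 and 48, against 15.8 ± 2.49, 14.9 ± 3.19 and 10.3 ± 2.04 CPM in control tissue (SD, n = 3, 3 and 4). On this scale, chosen after the data were seen, the tissues overlapped at day 3, control epithelium was the lower at day 14 and the higher at day 48. Per 1000 CPM of the summed genes of all epithelial cells, control epithelium held 46.8 ± 9.96, 34.7 ± 3.65 and 61.6 ± 8.72 CPM of Slc6a14, against 92.3 ± 7.26, 101 ± 16.5 and 59.1 ± 17.1 CPM in control tissue. There control epithelium was the lower at days 3 and 14, and the tissues overlapped at day 48. What share of the tissue difference follows the surface genes was not tested.

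The summed surface genes also moved with T.mu in total tissue. They ran from 103794 to 125598 CPM with T.mu and from 105386 to 113307 CPM in controls at day 3. At day 14 they ran from 116946 to 129617 CPM with T.mu and from 90373.5 to 103407 CPM in controls, and at day 48 from 102014 to 115902 CPM with T.mu and from 82256.6 to 96125.2 CPM in controls. The sums did not overlap at the later days. Abundant members weigh most in them. Lypd8 alone averaged 23758 CPM with T.mu and 13347 CPM in controls at day 14, within sums of 124502 and 97222 CPM, while the median log2 fold change of the 28 genes was 0.04, with 15 above 0. Slc6a14 per 1000 CPM of them was 14.6 ± 0.0641, 17.2 ± 2.06 and 21.4 ± 4.61 CPM with T.mu at days 3, 14 and 48, against 15.8 ± 2.49, 14.9 ± 3.19 and 10.3 ± 2.04 CPM in controls (SD, n = 3, 3 and 4). At day 48 the T.mu libraries ran from 16.3 to 27.4 and the controls from 7.70 to 12.6, which do not overlap. At day 14 the 15 genes of all epithelial cells summed to 16755 to 19312 CPM with T.mu and 13293 to 15985 CPM in controls, which do not overlap. All 15 lay above 0 (median log2 fold change 0.36). Per 1000 CPM of them, Slc6a14 at day 14 was 121 ± 14.0 CPM with T.mu and 101 ± 16.5 CPM in controls (SD, n = 3 each), and the groups overlapped. At day 48 these genes summed to 12305.1 to 18391.7 CPM with T.mu and 15017.6 to 16820.3 CPM in controls. Per 1000 CPM of these, Slc6a14 was then 149.6 ± 30.0 CPM with T.mu and 59.1 ± 17.1 CPM in controls (SD, n = 4 each). As a fold between means, the day 48 difference was as large on that scale as in CPM. Per 1000 CPM of the surface genes it was smaller.

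**Figure D3:**
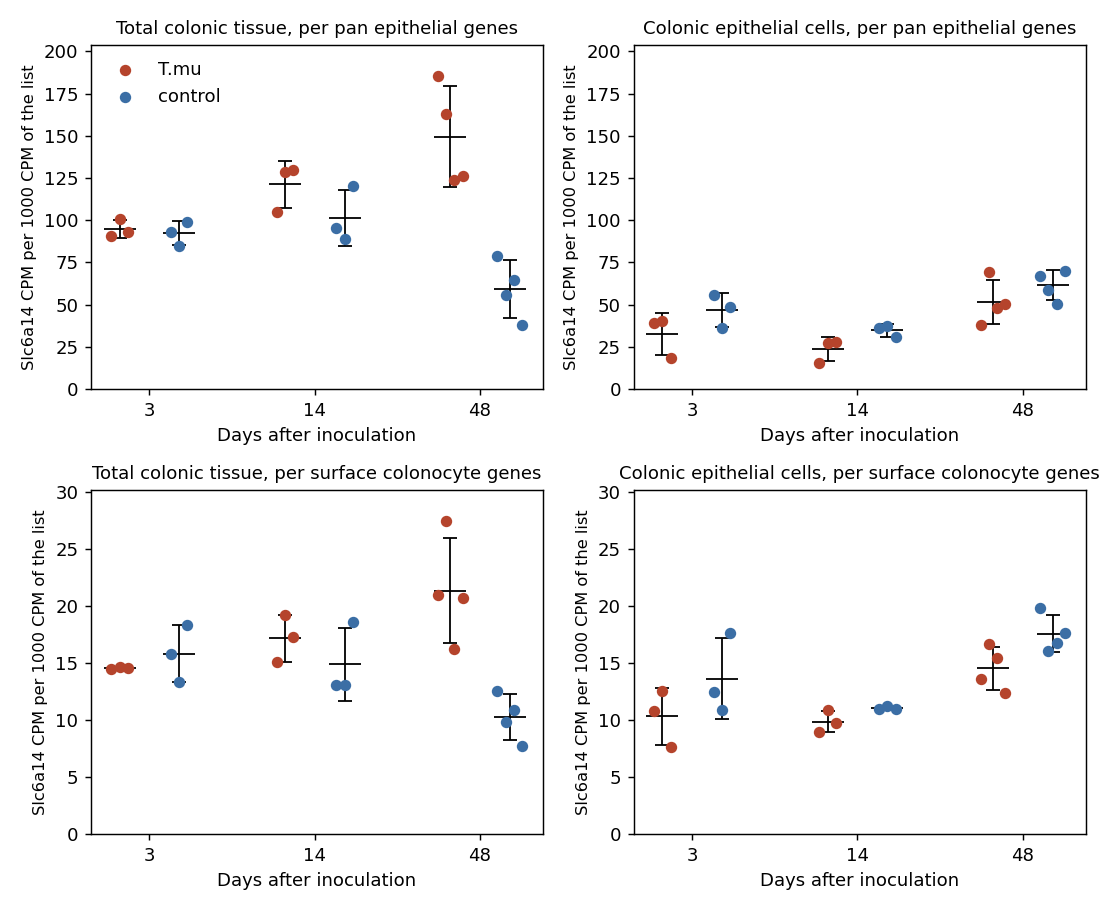
Slc6a14 CPM per 1000 CPM of summed marker genes in each library (points), by days after inoculation, with T.mu left of control and the mean and SD as bars; total tissue is on the left, epithelium on the right, all epithelial genes above and surface colonocyte genes below. In total tissue at day 48 the T.mu libraries lie above the controls per 1000 CPM of epithelial genes (123.7 to 185 with T.mu, 37.7 to 78.5 in controls) and per 1000 CPM of surface colonocyte genes (16.3 to 27.4 with T.mu, 7.70 to 12.6 in controls).

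Genes of other cell types moved at day 48 as well. Of 8 adipocyte genes, 6 were tested and 4 fell with T.mu at day 48, 66.7% against 0.804% of all genes called lower (median log2 fold change -3.01). Their sum ran from 99.0 to 246 CPM with T.mu and from 549.8 to 2438 CPM in controls. At day 3 none was called by edgeR, 4 had an unadjusted p under 0.05, and all 6 lay above 0 (median 3.00), with sums of 142 to 193 CPM with T.mu and 80.9 to 83.1 CPM in controls. The 10 smooth muscle genes summed to 2811 to 5736 CPM with T.mu and 4779 to 6516 CPM in controls at day 48. None of them was called then, though 3 had an unadjusted p under 0.05. Of the 10, 0 lay above 0 at day 48 (median log2 fold change -0.44, against -0.11 over all genes), and all 10 did at day 3 (median 0.22). Macrophage and dendritic cell genes summed to 178 to 405 CPM with T.mu and 261 to 464 CPM in controls at day 48. Of the defining lymphocyte genes, Cd3e of T cells was at 0 in 10 and Cd79a of B cells in 16 of the 20 tissue libraries. Of 12 B and plasma cell genes, 7 were tested and 1 rose at day 48, Jchain, the joining chain of secreted antibodies (14.3% against 1.00%), and 3 had an unadjusted p under 0.05. They summed to 636 ± 149.8 CPM with T.mu and 449 ± 139 CPM in controls (SD, n = 4 each). The part of these cell types in the Slc6a14 values was not tested.

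Among the other amino acid and peptide transporter genes, 1 of 35 tested (of 52 listed) rose with T.mu at day 48. This is 2.86%, against 1% of all genes called higher and 1.8% called in either direction. That gene was Slc3a1, the heavy chain that brings the cystine and cationic amino acid transporter to the apical membrane. It had 144, 276, 110.2 and 234 CPM in the T.mu libraries of day 48, against 97.7, 111, 73.6 and 121 CPM in the controls. These ranges overlap. The means were 191 ± 76.9 CPM with T.mu and 101 ± 20.6 CPM in controls (SD, n = 4 each), a log2 fold change of 0.90 ± 0.21 (SE) with an adjusted p of 0.0114 (edgeR's quasi-likelihood test). At day 3 Slc3a1 had 73.9 ± 4.24 CPM with T.mu and 108 ± 11.4 CPM in controls (SD, n = 3 each), and at day 14 92.0 ± 24.6 CPM with T.mu and 102 ± 12.3 CPM in controls (n = 3 each). Its response grew by 1.44 ± 0.32 between days 3 and 48 on the log2 scale (adjusted p = 0.041), where 0.0855% of all genes were called.

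The Slc3a1 calls were not firm. The day 48 call was lost without T.mu replicate 2, T.mu replicate 4 or control replicate 3 (adjusted p up to 0.19), without the libraries under 400000 counts, of which 2 are T.mu libraries of that day, with the compared libraries alone, and with no filter on low counts (adjusted p = 0.0572). The growth between days was kept in 5 of 14 fits that left out 1 library. With the litter as a block a further gene of the list was called at day 48, Slc7a7, the light chain of a cationic amino acid exporter, at a log2 fold change of 1.41 ± 0.37 (adjusted p = 0.0343), against 1.29 ± 0.49 without the block (adjusted p = 0.237).

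At days 3 and 14 none of the 35 tested transporter genes was called by edgeR's quasi-likelihood test or by DESeq2, where 0.470% and 0.966% of all genes were called by edgeR, and 1 and 4 of them had an unadjusted p under 0.05. The median log2 fold change of the list was -0.03, 0.07 and 0.05 at days 3, 14 and 48, near the medians over all genes. Among the 18 transporters with a mean of at least 10 CPM, values at day 48 ran from -1.07 for Slc1a4, a neutral amino acid transporter, to 1.29 for Slc7a7. At day 3, 8 of the 18 were above Slc6a14 and at day 14, 2 were. At day 48 the first places cannot be ordered, since Slc7a7 was at 1.29 against 1.31 for Slc6a14, and at 1.41 against 1.34 with the litter as a block.

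**Figure D4:**
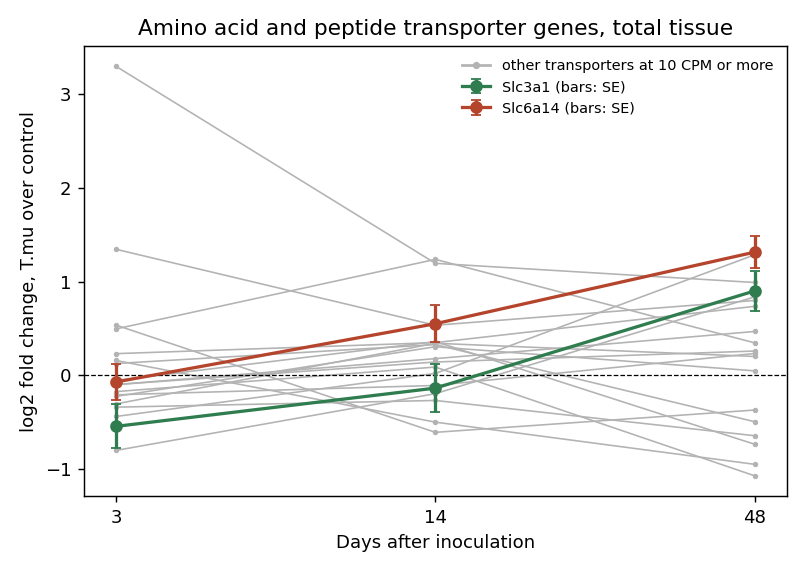
log2 fold change of T.mu over control in total tissue by days after inoculation, for Slc6a14 (red), Slc3a1 (green) and the other amino acid and peptide transporter genes with a mean of at least 10 CPM (grey); bars on the coloured lines are SE. At day 48 Slc6a14 stands at 1.31 and the highest of the 18 others, Slc7a7, at 1.29, within its SE of 0.49.

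Of 19 further SLC6 genes, 7 were tested in total tissue and 0 were called at days 3, 14 and 48 by edgeR's quasi-likelihood test, where 0.47%, 0.966% and 1.8% of all genes were called, so that 0 of 7 is no result about the family. The numbers at an unadjusted p under 0.05 were 0, 0 and 1. Their median log2 fold change was -0.34, -0.27 and -0.26 at days 3, 14 and 48. The taurine transporter Slc6a6 was at -0.64 ± 0.22 (SE) at day 48 (adjusted p = 0.126). Slc6a19 and Slc6a20a, neutral amino acid and proline transporters of small intestine and kidney, were at 0.99 ± 1.37 and 0.13 ± 0.71. Their errors are wide.

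Slc1a5, a glutamine transporter, was at -0.95 ± 0.34 (SE) at day 48 (adjusted p = 0.172), and Slc15a1, the peptide transporter, at 0.84 ± 1.03 (adjusted p = 0.798). Slc7a5 and Slc7a11, a large neutral amino acid and a cystine transporter, did not pass the filter on low counts in total tissue. Of 28 genes that ATF4 raises when amino acids run short, 23 were tested and none was called at days 3, 14 or 48, with 0, 1 and 3 at an unadjusted p under 0.05 and a median log2 fold change of -0.39 at day 48. Of 26 genes of arginine and tryptophan use, 17 were tested and none was called at these days, with 1, 3 and 4 at an unadjusted p under 0.05. For lists of this size, no call is near the share over all genes of 0.47%, 0.966% and 1.8%. Nos2, the inducible enzyme that makes nitric oxide from arginine, had 38.6 ± 49.4 CPM with T.mu at day 48 and 6.71 ± 11.2 CPM in controls (SD, n = 4 each), a spread as wide as its mean.

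Slc6a14 is known as an inflammation-raised gene, so 34 other genes known to rise in inflamed colonocytes were set beside it, of which 24 were tested. In total tissue at day 3, 1 of them rose, which is 4.17% against 0.462% of all genes called higher. At day 14, 5 rose, 20.8% against 0.821%, and at day 48, 3 rose, 12.5% against 1.00%. None fell at these days. The list was chosen with earlier results of these data known, so the shares are a description and no independent evidence. The sum of the list was uneven between libraries, at 42242 CPM in T.mu replicate 2 of day 48 against 5687, 6132 and 14234 CPM in the other T.mu libraries and 4561 to 12164 CPM in controls. In epithelium 19 were tested. At day 3, 1 rose (5.26%, against 0.356% of all genes called in either direction), and at day 14, 0 rose, with 5 at an unadjusted p under 0.05. At day 48, 2 rose (10.5%, against 0.296% of all genes called in either direction). The genes that rose were Ifitm3, an antiviral membrane protein, at days 3 and 48 and Zbp1 at day 48. In total tissue the median log2 fold change of the list was 0.03, 1.20 and 0.71 at days 3, 14 and 48, so unlike Slc6a14 its median was higher at day 14 than at day 48.

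Zbp1, a sensor of nucleic acids that triggers cell death, rose at all 3 days, with 77.8 ± 27.3, 103 ± 17.3 and 70.8 ± 12.9 CPM with T.mu at days 3, 14 and 48, against 17.6 ± 2.41, 10.4 ± 9.92 and 16.3 ± 6.04 CPM in controls (SD, n = 3, 3 and 4). Its log2 fold changes at these days were 2.15 ± 0.30 (SE), 2.80 ± 0.38 and 2.17 ± 0.29 (adjusted p = 4.33e-06, 2.72e-06 and 5.93e-06, edgeR). Casp4, the caspase that binds bacterial lipopolysaccharide, had a course nearer to that of Slc6a14. It had 43.1 ± 6.36, 103 ± 21.8 and 111 ± 31.7 CPM with T.mu at days 3, 14 and 48, against 35.8 ± 8.07, 41.2 ± 6.80 and 40.4 ± 4.93 CPM in controls, and rose at days 14 and 48 (log2 fold change 1.23 ± 0.28 and 1.45 ± 0.23, adjusted p = 0.011 and 4.05e-05). Unlike Slc6a14, its control mean was not lower at day 48 than at day 3.

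Nfkbiz, an inducible regulator of NF-kB targets, rose at days 14 and 48 (log2 fold change 1.11 ± 0.28 and 0.86 ± 0.23, adjusted p = 0.0389 and 0.0352), but each call was lost in 5 fits that left out 1 library, with an adjusted p up to 0.363 at day 14 and 0.181 at day 48. Saa3, an acute phase protein, and Nfkbia, the NF-kB inhibitor, rose at day 14 (2.93 ± 0.57 and 1.22 ± 0.25, adjusted p = 0.0015 and 0.00278) and had 1.31 ± 0.40 and 0.05 ± 0.21 at day 48 (adjusted p = 0.0855 and 0.831). Saa3 has close paralogs, and how reads shared between them were counted is not given in the sources used here. The day 14 calls of Saa3, Nfkbia, Nfkbiz and Casp4 were each lost without the shallow libraries. Duox2, the peroxide-making oxidase of colonocytes, had 292 ± 214 CPM with T.mu at day 48 and 80.2 ± 34.9 CPM in controls (SD, n = 4 each), and was not called (adjusted p = 0.104).

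The surface colonocyte genes, among which Slc6a14 is not listed, went both ways at day 48. Of 28 tested, 3 rose and 3 fell (21.4% against 1.8%), with a median log2 fold change of 0.12. Lypd8, a secreted protein that keeps flagellated bacteria from the epithelium, rose to 17179 ± 2027 CPM with T.mu, against 12007 ± 1292 CPM in controls (SD, n = 4 each; log2 fold change 0.52 ± 0.12, adjusted p = 0.00649, edgeR; 0.097 with no filter on low counts). Krt20, a keratin of differentiated cells, and Tmigd1, an adhesion protein of the brush border, rose by 0.55 ± 0.14 and 0.67 ± 0.17 (adjusted p = 0.0256 and 0.0277), calls lost in 5 of 8 fits that left out 1 library. The selenium-binding protein Selenbp1 fell by 0.59 ± 0.14 on the log2 scale (adjusted p = 0.013), a call lost in 2 of 8 such fits, without the shallow libraries and with the compared libraries alone (adjusted p up to 0.188). The phosphate transporter Slc20a1 fell as well, by 1.04 ± 0.27 (adjusted p = 0.0358). At day 14, 2 rose, Lypd8 and the carbonic anhydrase gene Car4, and 1 fell, Slc20a1. Without the libraries under 400000 counts the calls of Lypd8 and Car4 were lost (adjusted p = 0.242 and 0.553), and that of Car4 also in 2 fits that left out 1 library. At day 3 none was called by edgeR, though 5 had an unadjusted p under 0.05.

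The genes most like Slc6a14 were picked by Pearson's r of log2(CPM + 1) over the 20 tissue libraries, among 11695 other genes. The libraries include those that chose Slc6a14, so the likeness is a description. The first 10 were Smpdl3a (r = 0.85, Spearman's rho = 0.84), AA467197 (0.83, rho 0.76), Ifit1bl2 (0.82, rho 0.80), Dstn (0.81, rho 0.89), Cmpk1 (0.81, rho 0.72), Plac8 (0.80, rho 0.82), Eif2s2 (0.79, rho 0.81), Car1 (0.78, rho 0.70), Prss30 (0.78, rho 0.73) and Slc10a2 (0.77, rho 0.72). With the group means taken off, r was highest for Eif2s2, at 0.80, and lowest for Cmpk1, at 0.28. Over the 20 epithelial libraries r ran from -0.45 for Prss30 to 0.75 for Cmpk1, so the likeness in tissue did not carry over to epithelium for all of them.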

How the data were processed

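Libraries for 3′ digital gene expression were made from total colonic tissue and epithelial cells of the 12 groups, per the labels' protocols. The authors deposited 1 table of whole-number counts per gene and library, without normalization. Per the submitters' processing notes the tools were STAR and Subread; versions and settings are not given. The sources used here give neither build nor annotation, nor whether counting used strand or molecular identifiers, so counting error is all that depth shows. Of 45792 mouse gene IDs, 45143 (98.6%) matched a symbol in GENCODE M21. The 1 non-mouse entry (269150 of 69164307 counts, 0.389%) stayed out of library sizes and tests. Replicates differed by more than counting error in every group (chi-square per degree of freedom 4.57 to 25.8). The value is pooled over the libraries of a group, so it cannot exclude a repeated pair among them. No library was treated as deposited more than once.

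Genes were kept by filterByExpr (minimum count 10, minimum total 15), scaled by TMM and tested with edgeR 4.0.16 (R 4.3.3) by its quasi-likelihood test with robust dispersions: 1 fit per tissue (20 libraries, 6 groups; 11696 genes in total tissue, 10119 in epithelium) and 1 fit of all 40 libraries (11834 genes) for control epithelium over control tissue. P-values were adjusted by Benjamini-Hochberg over every gene of a fit and called under 0.05. T.mu and control libraries of a tissue and day with the same number in their titles were taken as litter pairs. Deviations of the 20 pairs correlated at -0.10 to 0.18, over 0.1 in 3. The alternatives were RLE scaling, no filter, DESeq2 1.42.0, litter as a block, each library left out, halved counts, no libraries under 400000 counts, and only the libraries compared. The tests were tried on simulated counts.

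Named genes were Slc6a14, the 10 genes most like it, up to 6 called members per list with the smallest p, a few genes named whatever their result, and its neighbours on the X chromosome. Slc20a1, the member past these 6, was added after its values were seen, as were Gm25553, Slc7a7 and Slc1a4 and the cell type markers. The members and lists were chosen with earlier results of these data known. Some genes of the lists are counted in them but not reported by name here.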

Additional observations from a re-analysis of the deposited data

Results flagged for a closer look

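At day 48, the groups of 4 libraries were searched for 1 library far from the other 3, with Dixon's ratio. Slc6a14 itself had none in any group. Of 126 groups of named genes examined, 9 had one, and chance gives about 1 in 20. In T.mu total tissue, Duox2 was at 610 CPM in replicate 2 against 156 to 225 CPM in the others, Cmpk1 at 1164 CPM in replicate 4 against 922 to 937 CPM, Slc38a2 at 203 CPM in replicate 3 against 102 to 112 CPM, and Slc7a8 at 1.60 CPM in replicate 3 against 0 in the others. In control total tissue, Nfkbiz was at 135 CPM in replicate 2 against 102 to 106 CPM, Slc1a5 at 76.7 CPM in replicate 2 against 45.1 to 49.1 CPM, and Nos2 at 23.3 CPM in replicate 4 against 0 to 2.93 CPM. In T.mu epithelium, Slc6a6 was at 83.3 CPM in replicate 3 against 53.3 to 54.6 CPM, and Slc3a1 was at 6.54 CPM in replicate 2, below the 13.5 to 14.9 CPM of the others.

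The Slc3a1 response in total tissue differed between days 48 and 3 by 1.44 on the log2 scale, past the threshold of edgeR's test of that difference. The non-mouse entry of the table, which no comparison used, was at 1425 CPM of all counts in the lowest T.mu tissue library, above 969 CPM in the highest control. That control, replicate 2 of day 48, and replicate 1 of day 14, at 512 CPM, stood above the other tissue controls (5.11 to 72.5 CPM). In epithelium the arms overlapped, with T.mu libraries of day 48 as low as 45.2 CPM and a highest control of 71.5 CPM.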

How the results depend on the processing

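No called result changed direction. Slc6a14 at day 3, near 0 in both tissues, changed sign when 1 library was left out (-0.16 to 0.02 in total tissue, -0.21 to 0.09 in epithelium), and in epithelium once more under another choice (0.01). Of 110 values of Slc6a14 under the alternatives, 109 moved by less than the spread between replicates or kept their side of the threshold. The exception was its day 14 value in total tissue, at 0.14 without libraries under 400000 counts, which leaves 1 control. Leaving out each library gave 1.16 to 1.46 at day 48 and 0.42 to 0.82 at day 14. With the litter number as a block common to all days, which does not pair libraries within a day, the day 48 value was 1.34. With this block the number of transporters called at day 48 was 2 against 1, and no other count of calls moved by over 1.5 times. Control epithelium over control tissue was at -1.33 by means of log2 CPM (permutation test with 100000 resamples, p = 6e-05).

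Counts of genes called depended more on the choices. In total tissue, the 55 genes of day 3 became 84 with halved counts and 103 with the compared libraries alone. The 113 of day 14 became 174 by DESeq2 (114 higher, 60 lower, against 96 and 17) and 27 without shallow libraries, and 56 to 196 when 1 library was left out. The 211 of day 48 became 370 by DESeq2 (258 higher, 112 lower, against 117 and 94), 99 without shallow libraries and 120 with the compared libraries alone, and 99 to 291 when 1 library was left out. The 10 genes whose response differed between days 48 and 3 became 26 by DESeq2 and 41 with no filter, and 2 to 20 when 1 library was left out. Transporters called at day 48 were 2 by DESeq2, 2 with no filter (1 higher and 1 lower, Slc3a1 not among them), 0 without shallow libraries or with the compared libraries alone, and 0 to 2 when 1 library was left out (0 to 1 at day 14). In epithelium, the 36 genes of day 3 became 23 with halved counts, 10 without shallow libraries, 12 with the compared libraries alone and 18 to 52 when 1 library was left out. The 51 of day 14 became 95 by DESeq2, 80 with halved counts, 90 without shallow libraries, 262 with the compared libraries alone and 19 to 48 when 1 library was left out. The 30 of day 48 became 14 to 28 when 1 library was left out. The cause was not tested. Shallow libraries, under 400000 counts, limit total tissue at day 14 (2 controls) and day 48 (2 T.mu libraries) and epithelium at day 3 (1 T.mu library and 2 controls).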
